A study of Mus musculus with 14 samples.

Results

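Of 13602 neurons annotated as hippocampal on sections from 14 mouse brain samples, 1644 carried the deposited class CA3_ExN. Of these, 188 had been placed by the authors' Leiden clustering into cluster 1, the cluster that held 2973 neurons of the class CA1_ExN, while 1129 lay in cluster 8, 299 in cluster 3 and 28 in other clusters. The 188 neurons that were CA3 by class and grouped with CA1 by cluster are the subject here, and they were chosen by those 2 deposited columns alone. They are compared with the CA3-annotated cells of Leiden 8 and the CA1-annotated cells of Leiden 1, to ask whether they resembled CA1, CA2 or CA3 neurons and where they lay.

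Transcripts had been counted in segmented cells by MERFISH, which images single RNA molecules in tissue sections, and 255 genes are used here. Genes after Kcnj8 in the alphabet were not used. The deposited total count per cell was larger, with a median of 474 in the 188 cells, against 262.5 over the 255 genes. Counts and levels below are of these 255 genes, and a gene is called measured if it is among them. Ctl-Veh mice were not irradiated and had vehicle (n = 5 samples), Ctl-Rz mice were not irradiated and had RZ (n = 3), Ir-Veh mice had radiation and vehicle (n = 4), and Ir-Rz mice had radiation and RZ (n = 2). RZ is the labels' own abbreviation, and the sources used here do not give strain, sex, age or radiation dose. A sample is named by its group and its number, which is also the assay number in the deposited cell table, and each of 7 assays held 2 samples. The labels do not say that samples came from separate animals, so the tests measure the spread between samples, which may be technical.

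The pyramidal cell layer of the hippocampus runs from CA3, which receives the mossy fibres of the dentate gyrus, through the narrow CA2 field to CA1, the main output field. Pyramidal neurons of these fields share most of their genes and differ in a small set of markers. CA2 neurons, which have no class of their own in the deposited annotation, are wrapped in perineuronal nets, a matrix whose core protein is aggrecan. The family of immediate early genes, Fos, Fosb, Arc and the Egr genes among them, is switched on within minutes of strong neuronal activity and encodes mostly transcription factors.

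A sample held 5 to 34 such cells, with a median of 14, and 1459 to 7001 counts over them. Ir-Veh 12 held 34, the most, and its cells were also the poorest, where the median cell held 98 counts and that of the other samples 139 to 498. Of the 24 cells with under 100 counts, 17 came from Ir-Veh 12. No cell identifier was shared between samples. The classes were almost wholly separate in space, since 99.9% of CA1_ExN, 97.2% of CA3_ExN and 99.95% of DG_ExN cells had a majority of their own class among the 10 nearest annotated neurons. The sources used here do not say how the classes were assigned, and position may have been used. A comparison of position between CA3-annotated Leiden 1 and Leiden 8 cells holds the class the same. It is not free of that limit, because position is taken relative to CA1-annotated cells. If position was used, the place of the class border could affect the comparison, which was not tested.

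The cells lay among CA3-annotated neurons and not inside CA1, which their own class may have required. Among the 10 nearest annotated neurons of a CA3-annotated Leiden 1 cell, 93.4% ± 5.63 were CA3-annotated (SD over n = 14 samples) and 5.67% ± 5.98 were CA1-annotated. Only 5 of the 188 cells had a CA1-annotated majority around them, and 22 had any CA1-annotated neighbour. They did lie nearer to CA1 than other CA3-annotated cells: the share of CA1-annotated neighbours was 0.509% ± 0.831 around Leiden 8 cells and was lower there in 10 of 14 samples and higher in 2. The mean difference of 5.16 percentage points had an adjusted p of 0.00781 (exact sign-flip permutation test over samples, two-sided, Benjamini-Hochberg over 6 tests). With 5 neighbours in place of 10 the difference was 3.74 points and the adjusted p of the same exact test 0.0508. The share of CA3-annotated neighbours was 2.78 points lower than around Leiden 8 cells, with an adjusted p of 0.188 by the exact test.

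**Figure D1:**
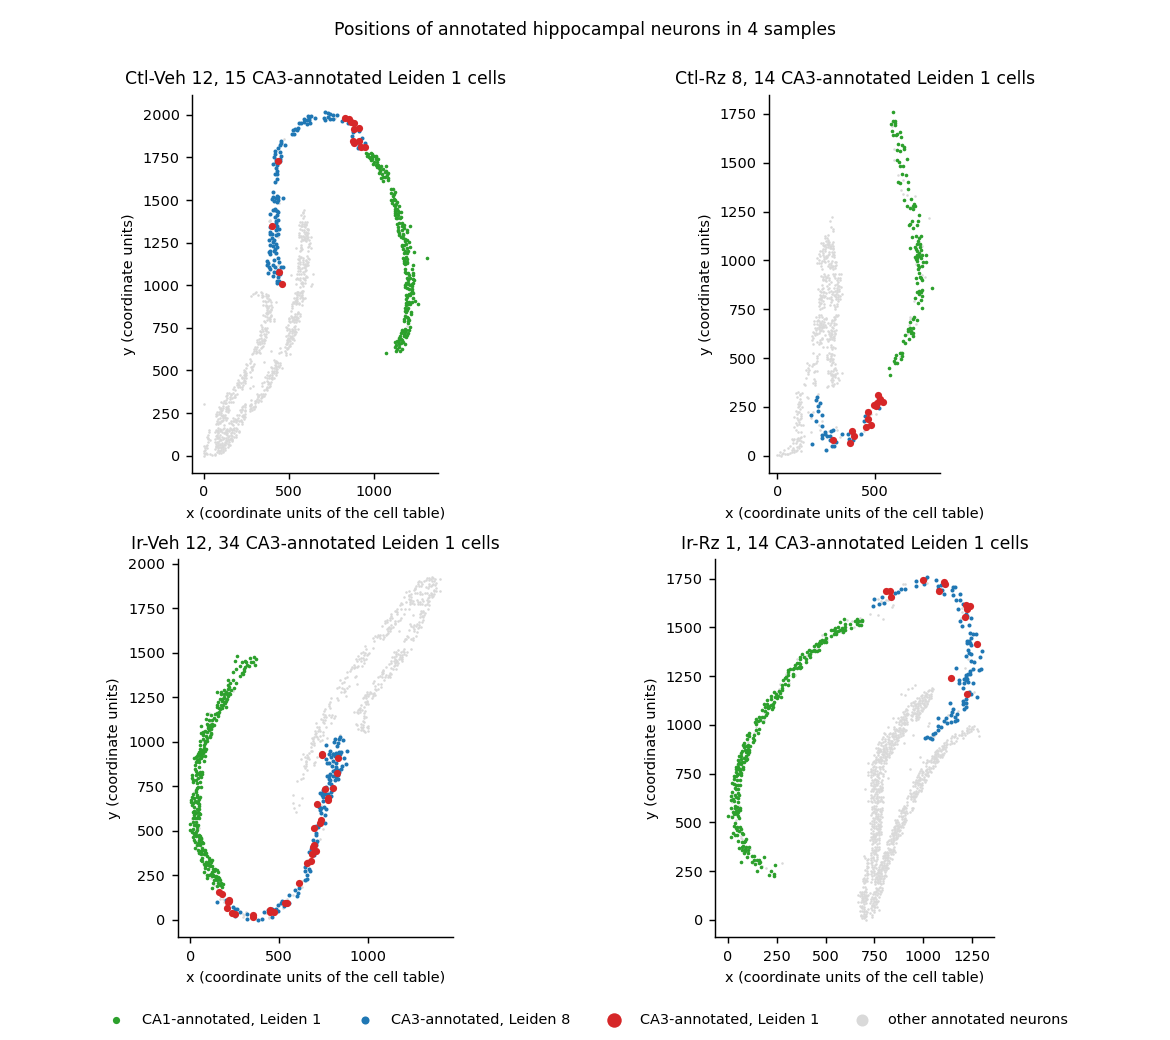
Positions of annotated neurons (x and y in the coordinate units of the cell table, shifted to start at 0) in the sample with the most CA3-annotated Leiden 1 cells of each group. Red points are those cells, blue points CA3-annotated Leiden 8 cells, green points CA1-annotated Leiden 1 cells and grey points all other annotated neurons. The red points lie along the blue CA3 band, 15, 14, 34 and 14 of them in Ctl-Veh 12, Ctl-Rz 8, Ir-Veh 12 and Ir-Rz 1 of the 188.

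Position along the band was measured as the distance of a cell to the nearest CA1-annotated neuron of its sample. The unit of the coordinates is not stated in the files, and the median distance between an annotated neuron and its nearest neighbour was 10.2 units. When the Leiden 1 and Leiden 8 cells of a sample were ranked by this distance, the median Leiden 1 cell stood at the percentile 22.6 ± 8.88 and the median Leiden 8 cell at 53.9 ± 3.46 (SD, n = 14). The difference had the same direction in 14 of 14 samples, with an adjusted p of 0.000122 by the exact sign-flip test, the smallest that 14 samples allow. The measure and the distance limits that follow were chosen after the positions had been seen.

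Along the band, Leiden 1 took 30 of 56 cells of the 2 clusters within 100 units of CA1 (53.6%), 31 of 80 between 100 and 200 (38.8%), 44 of 204 between 200 and 400 (21.6%) and 83 of 977 beyond 400 (8.50%). In each of the 14 samples the share was higher within 200 than beyond 400 units. The mean over samples was 46.7% ± 23.3 within 200 and 7.88% ± 3.56 beyond 400, with an adjusted p of 0.000122 by the exact sign-flip test. Near CA1 the samples ranged from 16.7% in Ctl-Rz 11, on 6 cells, to 100% in Ctl-Veh 3, on 1 cell. Since most CA3-annotated cells lay far from CA1, the largest single group, 83 of the 188 cells, was nevertheless found beyond 400 units.

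**Figure D2:**
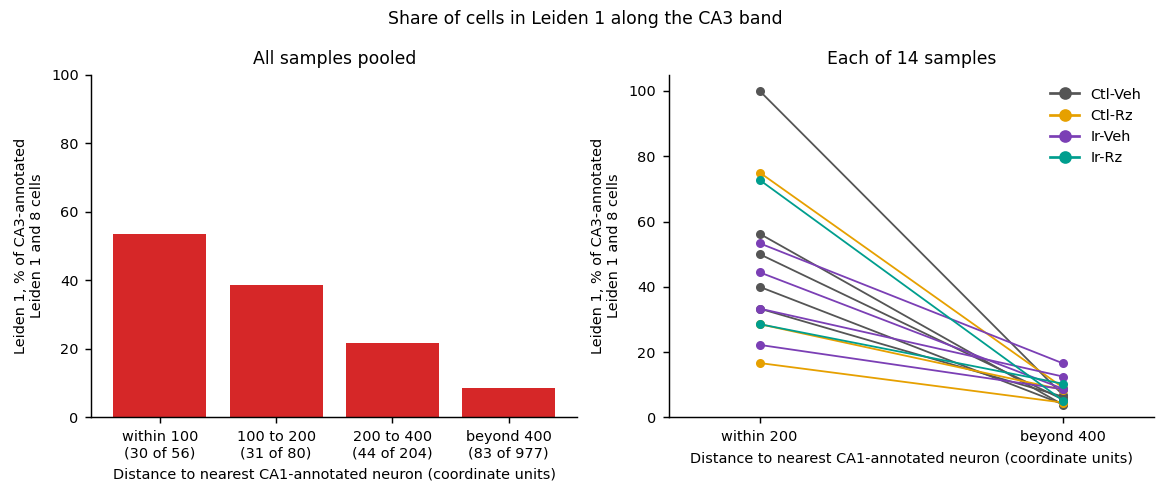
Share of CA3-annotated Leiden 1 and 8 cells that were in Leiden 1 (%), against distance to the nearest CA1-annotated neuron in coordinate units. Left, bars for all samples pooled with the numbers of cells, from 53.6% within 100 to 8.50% beyond 400; right, a line for each of 14 samples coloured by group, each higher within 200 than beyond 400 units.

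The cells were smaller and held fewer transcripts than both reference populations. Their median count per cell, averaged over samples, was 296 ± 110, against 394 ± 91.8 in CA3-annotated Leiden 8 cells and 410 ± 86.5 in CA1-annotated Leiden 1 cells (SD, n = 14). Their median volume was 645 ± 271 in the table's unstated unit, against 895 ± 116 and 785 ± 164. Counts were lower than in Leiden 8 cells in 10 of 14 samples (adjusted p = 0.00757, exact sign-flip test) and than in CA1-annotated cells in 13 of 14 (adjusted p = 0.000977, exact). Volume was lower in 11 of 14 samples against either reference, with adjusted p of 0.00586 and 0.00651 by the exact test over 4 comparisons. Per 100 units of volume the counts were 47.6 ± 10.7, against 44.9 ± 10.5 in Leiden 8 and 54.7 ± 11.7 in CA1-annotated cells.

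Because Leiden clusters are built from expression, expression between the 3 populations is described without a test. A level below is the number of counts of a gene per 1000 counts of the 255 genes, summed over the cells of a sample, and differences between populations are of log2(level + 0.5) within a sample. Probes differ between genes, so levels are compared only within a gene.

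The CA1 markers were mostly missing. Adgrl2, the adhesion receptor latrophilin-2, had levels from 0 to 2.20 with a median of 0.285 in the CA3-annotated Leiden 1 cells, from 0.0635 to 0.627 in Leiden 8 cells and from 6.38 to 12.5 in the CA1-annotated cells. The cells overlapped with Leiden 8 and stayed below every CA1 value. Fibcd1, an acetyl-group-binding membrane protein that marks CA1 pyramidal neurons, ranged from 0 to 7.97 with a median of 0.279, against 0.0342 to 0.508 in Leiden 8 and 10.4 to 23.2 in CA1-annotated cells. Its level was 5.49 in Ctl-Veh 12, 5.99 in Ir-Veh 9, 7.31 in Ir-Veh 1 and 7.97 in Ir-Rz 9, and at or below 0.686 in the other 10 samples. Gm2115, a transcript on the CA1 list, lay between the references, from 2.74 to 11.2, above the Leiden 8 cells in 14 of 14 samples and below the CA1-annotated cells in 14 of 14.

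The CA3 markers were reduced but present. Iyd, an iodotyrosine deiodinase that marks CA3 in these sections, ran from 0.439 to 5.28 with a median of 1.93, against 2.15 to 5.42 in Leiden 8 and 0.123 to 0.535 in CA1-annotated cells. It was below Leiden 8 in 13 samples of 14 and above CA1-annotated cells in all 14. Cckbr, the brain cholecystokinin receptor, ran from 0.574 to 4.35 with a median of 1.45, which overlapped the 1.005 to 4.24 of Leiden 8 and stayed above the 0.0748 to 0.454 of CA1-annotated cells. Coch, also on the CA3 list, was at 0.235 ± 0.254, too low for any order to be read.

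Both measured CA2 genes were present at higher means than in the references. Acan, which encodes aggrecan, was at 1.69 ± 1.77 against 0.734 ± 0.654 in Leiden 8 and 0.123 ± 0.0636 in CA1-annotated cells (SD, n = 14), highest in Ctl-Rz 8 at 6.42 and 0 in Ctl-Rz 11 and Ir-Veh 12. Cacng5, an auxiliary subunit of AMPA receptors that marks CA2, was at 1.04 ± 1.02 against 0.578 ± 0.524 and 0.139 ± 0.0411. Acan exceeded Leiden 8 in 10 of 14 samples and Cacng5 in 9 of 14, so the ranges of the CA3-annotated populations overlapped for both.

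**Figure D3:**
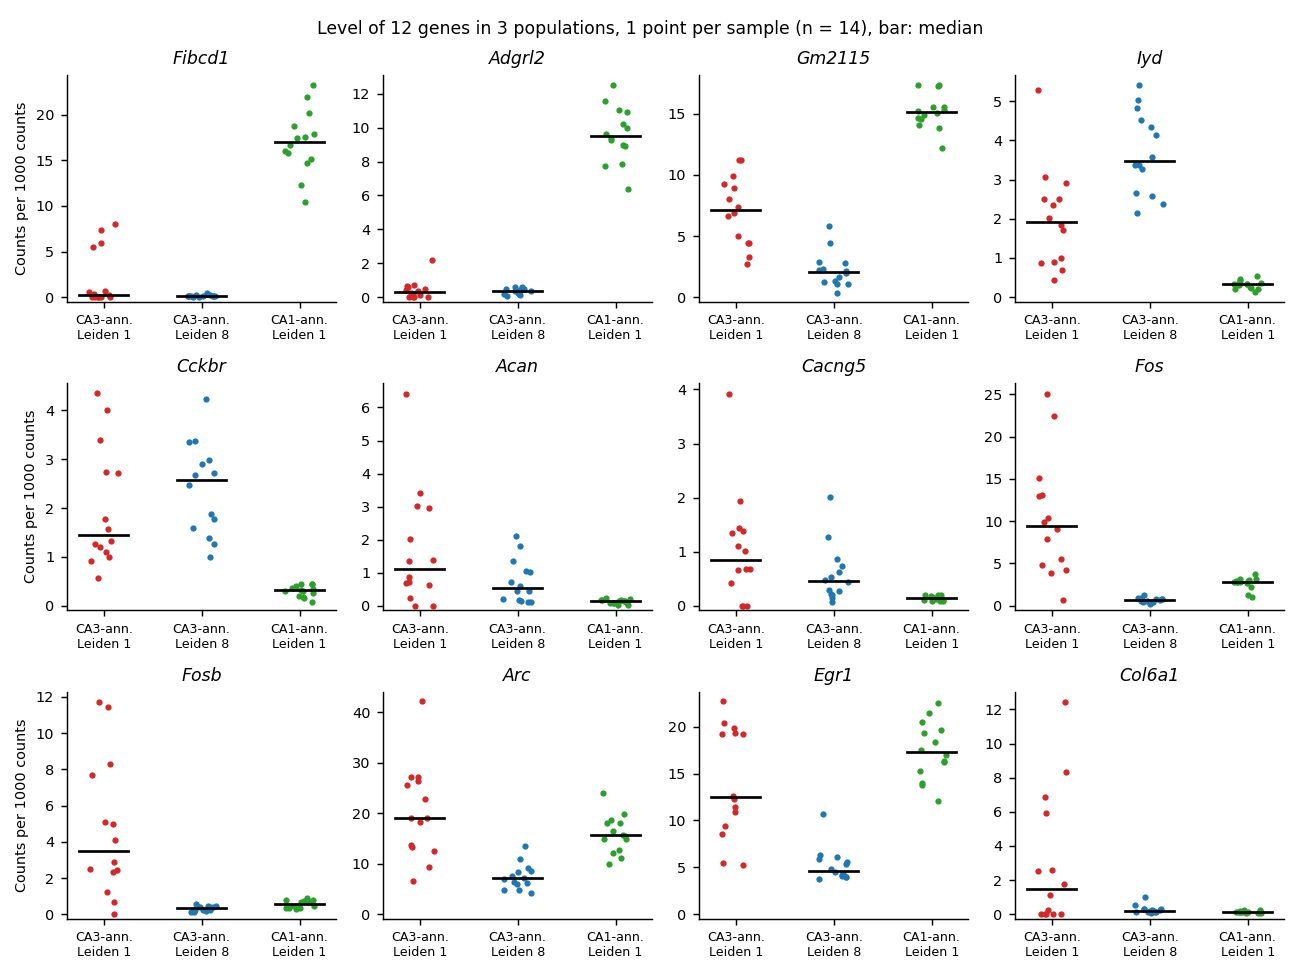
Level of 12 genes (counts per 1000 counts of the 255 genes) in CA3-annotated Leiden 1, CA3-annotated Leiden 8 and CA1-annotated Leiden 1 cells, 1 point for each of 14 samples, with the median as a bar. Adgrl2 and most Fibcd1 points of the CA3-annotated Leiden 1 cells lie near 0 with those of Leiden 8, Cckbr overlaps Leiden 8, and the Fos and Fosb points lie mostly above both references.

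Profiles were compared over 117 genes, those that reached a minimum count of 0.2 per cell in at least 1 of the 3 populations. Over these genes, the profile stood on average 33.4% ± 18.2 of the way from the Leiden 8 CA3 profile to the Leiden 1 CA1 profile (SD, n = 14). Samples ran from 6.10% in the lowest to 64.1% in the highest. On average 80.3% ± 18.7 of the squared difference from Leiden 8 lay off that line. Within 200 units of CA1 the profile stood 45.8% ± 22.7 of the way and beyond 400 units 16.4% ± 11.5, both against references of all distances. Of these 117 genes, 62 were between the references, 27 above both and 28 below both. Of the 24 genes that differed more than 2-fold between the references, 15 were nearer their CA3 level and 9 nearer their CA1 level. Of the 15 that were higher in CA1, 8 were nearer CA1, and of the 9 that were higher in CA3, 8 were nearer CA3.

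The other genes that separated the references most split in the same way. Cdh9, a classic cadherin, and Kcnc1, a fast voltage-gated potassium channel, were at 1.57 ± 1.40 and 4.41 ± 2.04, against 2.56 ± 1.83 and 6.90 ± 1.38 in Leiden 8 and 0.144 ± 0.0650 and 1.15 ± 0.233 in CA1-annotated cells. Htr1a, a serotonin receptor, was at 0.448 ± 0.405, against 0.252 ± 0.123 in Leiden 8 and 2.48 ± 0.835 in CA1-annotated cells. Kcnh7, a potassium channel, was at 0.803 ± 1.04 against 0.344 ± 0.239 and 3.41 ± 2.74. The transcription factors Bcl11b and Bcl6 were intermediate, at 3.27 ± 1.72 and 3.07 ± 2.21, against 1.20 ± 0.503 and 0.853 ± 0.487 in Leiden 8 and 5.63 ± 0.995 and 5.04 ± 1.39 in CA1-annotated cells.

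The 10 genes most above both references included 4 activity-induced genes. Fos had levels from 0.660 to 25.1 with a median of 9.47, against 0.169 to 1.27 in Leiden 8 and 0.986 to 3.70 in CA1-annotated cells. It was above Leiden 8 in 14 of 14 samples, by 2.91 ± 1.04 on the log2 scale, and above CA1-annotated cells in 13 of 14, by 1.48 ± 0.85. Fosb, a Fos paralogue in the same transcription factor family, had a median of 3.49 and reached 11.7, against medians of 0.338 and 0.572 in the references. Fosl2, another Fos-family gene, was at 3.804 ± 2.06 and Egr4 at 2.65 ± 1.23, against 0.704 ± 0.235 and 0.515 ± 0.241 in Leiden 8 and 1.07 ± 0.341 and 1.61 ± 0.570 in CA1-annotated cells.

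Of 10 measured activity-induced genes, 8 reached the minimum count, all 8 were above Leiden 8 and 7 were above both references, with a median difference from Leiden 8 of 1.43 on the log2 scale beside -0.06 over the 117 genes. Arc, a synaptic plasticity protein, was at 20.2 ± 9.24, against 7.47 ± 2.54 in Leiden 8 and 15.8 ± 3.75 in CA1-annotated cells. Egr1, a zinc-finger transcription factor, was at 14.04 ± 5.92, above the 5.26 ± 1.79 of Leiden 8 in 14 of 14 samples and below the 17.4 ± 3.06 of CA1-annotated cells in 11 of 14. Bdnf, the growth factor named in the study's title, was at 3.05 ± 1.46, against 2.73 ± 1.14 in Leiden 8 and 1.58 ± 0.4996 in CA1-annotated cells, and was above Leiden 8 in 9 of 14 samples.

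The rest of these 10 genes were Col6a1, Fam107a, Fezf2, Itga7, Acan and Cacng5. Col6a1, a collagen VI chain, was uneven, from 0 in 5 samples to 12.4 in Ir-Rz 1, while Leiden 8 had 0.0966 to 1.03 and CA1-annotated cells at most 0.271. Fam107a, an actin-associated protein, was at 3.47 ± 2.87, against 1.37 ± 0.488 and 0.899 ± 0.381. Fezf2, a transcription factor, was at 4.12 ± 1.67 against 2.74 ± 0.784 and 1.77 ± 0.509. Itga7, the laminin receptor subunit integrin alpha 7, was at 10.7 ± 4.12 against 7.80 ± 1.84 and 2.74 ± 0.956. These levels are over all distances. With samples pooled, Itga7 was lower than in Leiden 8 near CA1, at 14.44 against 21.55 within 100 units and 11.99 against 17.57 at 100 to 200. It was higher at 200 to 400 (15.61 against 11.325) and beyond 400 (6.68 against 5.99965). Fam107a and Fezf2 were lower within 100 units, at 1.22 against 2.96 and 2.44 against 4.76, and higher at each larger distance.

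The genes below both references differed less. Dkk3, a secreted Dickkopf-family glycoprotein, was at 19.8 ± 6.12 against 27.99 ± 8.49 in Leiden 8 and 29.1 ± 5.54 in CA1-annotated cells. Over all distances it was lower in 14 of 14 samples against either. With samples pooled, its order against Leiden 8 differed with distance from CA1. It was at 20.22, 15.92, 19.05 and 24.24 within 100, at 100 to 200, at 200 to 400 and beyond 400 units. Leiden 8 cells had 9.699, 15.97, 24.02 and 30.07 there. The part of position in the Dkk3 difference was not tested. Cpne5, a calcium-dependent membrane-binding protein, was at 0.595 ± 0.404 against 1.31 ± 0.248 and 0.983 ± 0.180. Crhr1, the receptor of corticotropin-releasing hormone, was at 1.49 ± 0.788 against 2.24 ± 0.521 and 2.15 ± 0.532. Kcnab1, a potassium channel beta subunit, was at 7.51 ± 4.77 against 7.90 ± 2.32 and 22.8 ± 5.05. It was above Leiden 8 in 5 of 14 samples, and its order against Leiden 8 differed with distance, as given below. Ctsb, Camk2g, Enpp2, Iqck and Kcnh2 were also below both, with mean log2 differences from the nearer reference of -0.47, -0.30, -0.35, -0.29 and -0.28.

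Markers of other cell types were at low levels, apart from the neocortical layer list. The summed level of its 7 measured markers ran from 4.88 to 14.4 over the samples, with Fezf2 and Bcl6 the highest. Against this, Leiden 8 had 3.64 to 7.05 and CA1-annotated cells 5.69 to 10.4. Grm2, of the dentate granule list, was at 0.333 ± 0.233 against 0.540 ± 0.221 in Leiden 8, and Adarb2, Calb2, Drd2 and Fn1 of the granule, mossy cell and subiculum lists were at means of 0.124, 0.285, 0.599 and 0.178, against 0.190, 0.148, 0.378 and 0.260 in Leiden 8. The summed level of 7 inhibitory neuron markers ran from 1.72 to 4.83 over the samples, against 2.12 to 6.46 in Leiden 8 and 1.48 to 4.37 in CA1-annotated cells. That of 5 astrocyte markers ran from 0.713 to 7.32, against 1.29 to 3.38 and 1.07 to 2.01, with the highest value of the gap-junction gene Gja1, 5.03, in Ir-Veh 2. The microglial sum of 6 markers reached at most 2.01 and that of 5 vascular markers at most 1.84, against 1.74 and 2.87 in Leiden 8. The part of RNA from other cells in the results was not tested. Of 9 measured ionotropic glutamate receptor genes, which carry fast excitatory transmission, 8 reached the minimum count, 0 were above both references and 4 below both, and their median difference from Leiden 8 was -0.05 on the log2 scale, beside 27 above both, 28 below both and a median of -0.06 over the 117 genes.

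The cells that held most counts of 4 sets of genes were also counted. A cell was called rich in a gene at a minimum count chosen after the values had been seen, so these groups are described without tests. Of the 188 cells, 12 held 3 or more Fibcd1 counts, 31 held 2 or more counts of Acan and Cacng5 together, 38 held 5 or more of Fos and Fosb together and 17 held 3 or more of Col6a1. No cell was rich in both Fibcd1 and the CA2 pair, 6 cells were rich in 2 of the 4 sets, and 96 were rich in none. The overlap expected of groups of these sizes was not worked out. Few shared cells thus do not show that the sets excluded each other. The shares of counts that follow are in part fixed, because the same counts defined the rich cells. The 12 Fibcd1-rich cells carried 91.8% of all Fibcd1 counts of the 188, the 38 Fos-rich cells 87.1% of the Fos and Fosb counts, the 17 Col6a1-rich cells 93.5% of Col6a1 and the 31 CA2-gene-rich cells 82.4% of Acan and Cacng5. The 96 other cells had a median of 174.5 counts and a volume of 402, against 348 to 502.5 counts in the rich groups, so a shallow cell had less chance to reach a minimum count.

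Counts were also thinned to 150 per cell, which left out 46 of the 188 cells and 42 of the 1129 Leiden 8 cells. The minimum was lowered to 3 counts for Fos and Fosb and to 2 for Fibcd1, and stayed at 2 for Acan and Cacng5. Fos-rich cells were then 36 of 142 (25.4%, against 20.2% before thinning), compared with 0.368% of Leiden 8 cells (0.797% before) and 4.72% of CA1-annotated cells (7.90% before). CA2-gene-rich cells were 9.86% (16.5% before), compared with 3.22% and 0.288%. These shares are over all distances and are not matched for position. Fibcd1-rich cells were 7.04% (6.38% before), compared with 0.184% of Leiden 8 cells and 69.1% of CA1-annotated cells.

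These groups differed in where most of their cells lay, but they overlapped along the band. Fibcd1-rich and CA2-gene-rich cells shared the zone within 100 units, with 8 cells each. Most Fos-rich and most Col6a1-rich cells shared the zone beyond 400 units, which held 44.1% of all CA3-annotated Leiden 1 cells. All 12 Fibcd1-rich cells lay between 18.0 and 116 units from the nearest CA1-annotated neuron, in Ctl-Veh 12, Ir-Veh 1, Ir-Veh 9 and Ir-Rz 9, and 7 had a CA1-annotated neuron among their 10 nearest neighbours, though none had a CA1-annotated majority. The 31 CA2-gene-rich cells lay within 400 units, 8 of the 30 cells within 100, 12 of 31 between 100 and 200 and 11 of 44 between 200 and 400. Leiden 8 cells near CA1 were more often CA2-gene-rich by the same minimum. There they were 19 of 26 within 100 units, 29 of 49 between 100 and 200, 22 of 160 between 200 and 400 and 6 of 894 beyond 400. Of the 38 Fos-rich cells, 27 lay beyond 400 units and 2 within 200. Of the 17 Col6a1-rich cells, 11 lay beyond 400 units and none within 100.

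The Fibcd1-rich cells had levels close to those of the CA1-annotated neurons nearest to CA3, in a comparison added after the data had been seen and described without a test. Their Fibcd1 level follows in part from how they were chosen, and the other cells set beside them were those without such counts. Their Adgrl2 level was 0.335, on 2 counts, beside a Fibcd1 level of 20.6, where CA1-annotated cells averaged 9.60 ± 1.63 and 17.0 ± 3.44 (SD, n = 14). Adgrl2 was graded along CA1. It was 0.667 in the 121 CA1-annotated Leiden 1 cells within 100 units of a CA3-annotated neuron, 1.31 between 100 and 200, 3.14 between 200 and 400 and 11.5 beyond 400, and lower within 200 than beyond 400 in 14 of 14 samples. Fibcd1 ran the other way, 23.0 within 100 units and 15.9 beyond 400, higher within 200 in 14 of 14 samples. Kcnab1 and Gm2115 were at 25.1 and 15.6 in the Fibcd1-rich cells, 21.8 and 15.8 in the CA1-annotated cells within 100 units, and 2.36 and 12.8 in the other 49 CA3-annotated Leiden 1 cells within 200 units. Acan and Cacng5 were both at 0 counts in the 12 Fibcd1-rich cells, where those other 49 cells had levels of 4.88 and 2.91.

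The CA2 genes followed position in both clusters. In CA3-annotated Leiden 1 cells Acan was at 2.33 within 100 units of CA1, 4.24 between 100 and 200, 2.17 between 200 and 400 and 0.217 beyond 400. In Leiden 8 cells it was at 4.67, 3.43, 1.02 and 0.186 over the same distances. Cacng5 was at 1.78, 2.17, 1.34 and 0.0867 in Leiden 1 and 6.11, 2.60, 0.944 and 0.112 in Leiden 8. Both clusters thus had CA2 genes near CA1 and nearly none beyond 400 units.

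The change along the band was tested over all CA3-annotated cells of any cluster, so that Leiden did not choose them, with edgeR's quasi-likelihood test on counts summed per sample within 200 and beyond 400 units and the sample as a block. It used 13 samples, since Ctl-Veh 3, with 1 cell near CA1, was left out. Of 62 genes that passed the filter on low counts, 20 were higher near CA1, a background of 32.3%, and 19 were lower, a background of 30.6%. Gm2115 was higher near CA1 by 4.67 ± 0.17 (log2 ± SE, adjusted p = 1.85e-16), Bcl6 by 3.99 ± 0.24 (2.47e-12) and Bcl11b by 2.70 ± 0.18 (6.96e-12). The difference was -2.06 ± 0.35 for Iyd (2.28e-05), -1.43 ± 0.26 for Kcnab1 (4.68e-05) and -0.82 ± 0.19 for Cckbr (0.00073), all lower near CA1. Without the 188 cells the differences were 4.80 for Gm2115, 3.93 for Bcl6, -1.88 for Iyd and -0.94 for Cckbr, and the counts stayed at 20 and 19. Arc, Egr1 and Bdnf did not pass, with differences of -0.15, -0.16 and -0.27 and adjusted p of 0.236, 0.366 and 0.202.

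Acan, Cacng5, Fibcd1, Cdh9 and Fos fell below the filter. In the edgeR fit with no filter, over 255 genes of which 10.2% were higher near CA1 and 20.8% lower, Cacng5 was higher near CA1 by 4.20 ± 0.29 and Acan by 3.59 ± 0.27, with adjusted p of 1.7e-29 and 6.83e-27. In that fit Fibcd1 was higher by 3.15 ± 0.37, and the differences were -2.30 ± 0.26 for Cdh9 and -0.95 ± 0.25 for Fos (adjusted p = 0.000987 by edgeR), lower near CA1. The median difference of all genes in that fit was -0.36, against 0.03 with the filter. For Acan, Cacng5, Fibcd1 and Fos no difference without the Leiden 1 cells was obtained, so the part of those cells was not tested. In Leiden 8 cells Fibcd1 was at 0.090 within 100 units, 0.174 at 100 to 200, 0.126 at 200 to 400 and 0.163 beyond 400. Fos was at 0.629, 0.738, 0.708 and 0.582 there.

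Among the CA3-annotated Leiden 1 cells the same genes changed along the band, although Kcnab1 did not keep the direction it had over all CA3-annotated cells. Gm2115 was at 15.6, 11.99, 8.44 and 1.56 within 100, at 100 to 200, at 200 to 400 and beyond 400 units, and both Gm2115 and Bcl6 were higher within 200 than beyond 400 in 14 of 14 samples. Leiden 8 cells near CA1 had like levels, with Gm2115 at 16.6, 13.5 and 4.75 in the first 3 zones. Within 100 units Bcl6 was at 6.11 in Leiden 8 and 5.44 in Leiden 1. Iyd was at 0.555, 0.724, 1.79 and 2.73 over these distances in Leiden 1, beside 0.539, 1.21, 3.55 and 3.91 in Leiden 8 cells. Fibcd1 was at 9.89 and 4.03 in the nearer pair of zones and at 0.224 and 0.130 in the farther pair. Kcnab1 was at 13.0, 6.51 and 2.54 in the first 3 zones, where Leiden 8 cells had 1.08, 1.65 and 4.64. Beyond 400 units Kcnab1 was at 9.54, close to the 9.39 of Leiden 8 cells there.

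Far from CA1 the cells stood apart from their Leiden 8 neighbours by activity-induced genes. The summed level of the 10 measured genes of that list was 26.3, 23.6, 60.1 and 88.6 in the 4 zones of the CA3-annotated Leiden 1 cells, and 20.7, 18.7, 17.6 and 17.7 in Leiden 8 cells. In the CA1-annotated cells of Leiden 1 it was 43.2, also above Leiden 8. Fos was at 1.89, 1.34, 10.1 and 16.9, against 0.629, 0.738, 0.708 and 0.582 in Leiden 8. It was higher beyond 400 than within 200 units in 13 of 14 samples, as were Fosb (13) and Arc (13), and Egr1 was so in 12. Over the 142 cells with 150 or more counts, thinned to 150, Fos correlated with Fosb (Spearman rho 0.56), Arc (0.56), Fosl2 (0.52) and Egr1 (0.47) and not with Col6a1 (-0.01), as a description over cells that share samples and sections.

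**Figure D4:**
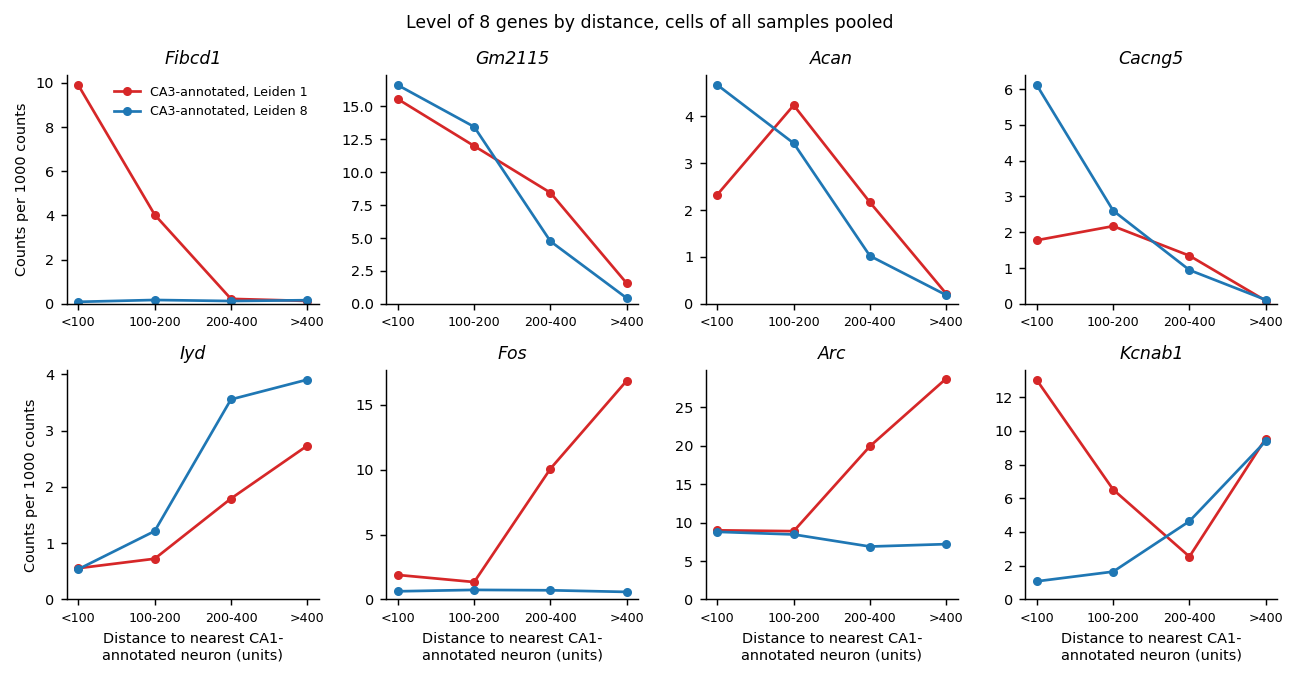
Level of 8 genes (counts per 1000 counts) against distance to the nearest CA1-annotated neuron in coordinate units, in CA3-annotated Leiden 1 cells (red) and Leiden 8 cells (blue), cells of all samples pooled. Gm2115, Acan, Cacng5 and Iyd change along the band in both clusters, whereas Fos and Arc are high only in red points beyond 200 units (Fos 10.1 and 16.9) and Fibcd1 only in red points within 200 units (9.89 and 4.03).

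The Col6a1-rich cells had a further profile. Their Fam107a level was 15.5, against 0.503 to 2.58 in the other rich groups, and in the thinned cells Col6a1 correlated with Fam107a (rho 0.48). Their Cck level, which encodes the neuropeptide cholecystokinin, was 1.26, against 13.3 to 18.6 in the other rich groups, and their Iyd level was 0.632. Col11a1, a fibrillar collagen chain, was at 10.7 in them and 8.26 in the CA2-gene-rich cells. They came from 8 samples, with 5 in Ir-Rz 1 and 3 each in Ctl-Veh 12 and Ir-Veh 12.

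Promoters are shown for Fos and Fosb, because these genes set the far cells most apart. The sequences are from RefSeq on build GRCm38.p6, from 250 bases before to 50 after the annotated start, and 182 of the 255 genes have an entry. Capitals mark TGACG, the half-site of the cAMP response element, searched on both strands. It was taken after the full TGACGT had been searched, which TGACG overlaps and which matched Fos 1 time and Fosb 0 times and occurs in 7.51% of entries. Fos lies on chromosome 12 (chr12:85473640-85473939, plus strand) with 2 matches, and Fosb on chromosome 7 (chr7:19309996-19310295, minus strand) with 1.
Fos: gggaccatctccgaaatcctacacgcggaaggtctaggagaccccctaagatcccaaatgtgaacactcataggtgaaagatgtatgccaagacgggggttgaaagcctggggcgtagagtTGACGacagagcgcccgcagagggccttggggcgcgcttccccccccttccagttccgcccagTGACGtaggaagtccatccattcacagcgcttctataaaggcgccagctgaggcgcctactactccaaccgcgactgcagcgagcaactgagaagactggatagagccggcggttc
Fosb: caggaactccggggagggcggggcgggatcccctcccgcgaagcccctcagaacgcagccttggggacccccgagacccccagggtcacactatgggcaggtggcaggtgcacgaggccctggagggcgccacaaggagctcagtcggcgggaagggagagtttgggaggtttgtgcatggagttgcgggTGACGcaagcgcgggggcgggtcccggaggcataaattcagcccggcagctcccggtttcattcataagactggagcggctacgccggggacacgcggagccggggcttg
TGACG occurs in 20.8% of 32851 promoter entries of that length. The AP-1 motif TGANTCA, present in 7.81% of them, and the CArG box, the binding motif of serum response factor, present in 1.63%, had 0 matches in either window. A match is a run of letters in the sequence and was not tested for binding.

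The share of CA3-annotated cells that lay in Leiden 1 did not differ detectably between treatment groups. The Ctl-Veh mean was 9.76% ± 2.76 (SD, n = 5) and the Ctl-Rz mean 12.8% ± 8.36 (n = 3), while Ir-Veh samples averaged 12.7% ± 4.003 (n = 4) and Ir-Rz samples 11.9% ± 3.12 (n = 2). The lowest sample was Ctl-Rz 11 at 6.31% (95% exact binomial interval 2.57 to 12.6, for counting error only) and the highest Ctl-Rz 8 at 22.2% (12.7 to 34.5), both of the same group. The groups overlapped throughout. Ir-Veh minus Ctl-Veh was 2.96 points (adjusted p = 0.714), Ir-Rz minus Ir-Veh -0.79 (0.933) and Ctl-Rz minus Ctl-Veh 3.03 (0.933), by exact permutation tests, two-sided, over 3 comparisons. The smallest unadjusted p these designs allow by the exact test is 0.00794, 0.0667 and 0.0179, so the comparison with Ir-Rz could not have passed. Within assays the differences were 0.219 and 8.51 points for Ir-Veh minus Ctl-Veh, -2.96 and 4.55 for Ir-Rz minus Ir-Veh, and -2.03 to 8.19 in 3 assays for Ctl-Rz minus Ctl-Veh. Fewer such cells cannot be told apart from cells whose transcripts placed them in another cluster.

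Gene by gene, no treatment comparison gave a call in the CA3-annotated Leiden 1 cells. In edgeR's quasi-likelihood test on counts summed per sample, 76 genes passed the filter, and 0 were called at an adjusted p of 0.05 for Ir-Veh against Ctl-Veh, Ir-Rz against Ir-Veh or Ctl-Rz against Ctl-Veh, a background of 0% in each. At an unadjusted p under 0.05 there were 0, 0 and 2 genes, and 0, 0 and 2 by DESeq2, which also called 0. A p that misses the threshold does not show that the groups were alike.

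Bdnf levels were 2.34, 1.37, 5.45, 5.10 and 1.76 for Ctl-Veh samples 2, 3, 8, 11 and 12, and 1.94, 3.39 and 5.94 for Ctl-Rz samples 3, 8 and 11. They were 2.37, 2.97, 2.53 and 2.22 for Ir-Veh samples 1, 2, 9 and 12, and 3.43 and 1.89 for Ir-Rz samples 1 and 9. All 4 groups overlapped. The edgeR log2 differences were -0.36 ± 0.51 for Ir-Veh minus Ctl-Veh, 0.02 ± 0.64 for Ir-Rz minus Ir-Veh and 0.18 ± 0.57 for Ctl-Rz minus Ctl-Veh (± SE), with adjusted p of 0.982, 0.989 and 0.967. Arc differed by -0.05 ± 0.42, -0.72 ± 0.55 and -0.53 ± 0.47 in the same order, and Egr1 by 0.22 ± 0.44, -0.16 ± 0.56 and -0.24 ± 0.49, none of them called.

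The marker genes gave no call either. Iyd differed by 0.32 ± 0.65, 0.12 ± 0.78 and 0.90 ± 0.72 on the log2 scale in that order, and Cckbr by -0.20 ± 0.65, -0.44 ± 0.82 and 0.05 ± 0.73. Fibcd1, which 4 samples carried, differed by 1.34 ± 1.15, 0.03 ± 1.40 and -2.59 ± 1.86. Adgrl2 did not pass the filter.

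Among the 5 smallest p of each comparison, Crtac1, an extracellular matrix protein, came nearest to a call. Its CPM on the TMM-scaled totals was 3418, 4164, 3031, 3765 and 8563 in Ctl-Veh 2, 3, 8, 11 and 12 and 366, 1540 and 482 in Ctl-Rz 3, 8 and 11. All 3 Ctl-Rz samples were below all 5 Ctl-Veh samples, a log2 difference of -2.27 ± 0.58 (SE) with an adjusted p of 0.0683 by edgeR. The smallest adjusted p of that comparison by DESeq2 was 0.0588. Fos was next, with levels of 25.1, 15.1, 10.3, 12.9 and 4.17 in Ctl-Veh and 4.86, 5.53 and 0.660 in Ctl-Rz, a difference of -1.68 ± 0.65 with an adjusted p of 0.692. Only Ctl-Veh 12 lay within the Ctl-Rz range. Chrm4, Grin1 and Fermt2 followed in that comparison with -1.27 ± 0.68, 0.47 ± 0.25 and 1.22 ± 0.70. For Ir-Veh minus Ctl-Veh the smallest p belonged to Bcl6 (-1.23 ± 0.63), Hpca (-0.56 ± 0.33), Cplx1 (-0.59 ± 0.37), Bsg (-0.55 ± 0.37) and Dnm1 (0.38 ± 0.26). For Ir-Rz minus Ir-Veh they belonged to Col6a1 (2.28 ± 1.35), Dbh (-1.79 ± 1.10), Fosl2 (-0.96 ± 0.70), Arc and Grin1 (-0.37 ± 0.31). Col6a1 was at 0.58 without Ir-Rz 1, Fosl2 at -0.43 without Ir-Veh 2 and Dbh at -0.052 with the assay as a block.

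Of the 8 activity-induced genes tested, 1 was higher and 7 were lower in Ctl-Rz than in Ctl-Veh, with a median of -0.70, and none was called. All 76 genes split 39 and 37 there, with a median of 0.03. The same list split 4 and 4 for Ir-Veh against Ctl-Veh (median 0.10), beside 41 and 35 over all genes (median 0.05). For Ir-Rz against Ir-Veh it split 1 and 7 (median -0.43), beside 38 and 38 over all genes (median 0.0057). The median distance percentile of the cells, which was not tested between treatments and overlapped between them, had a mean over samples of 15.998 ± 5.98 for Ctl-Veh, 24.7 ± 3.49 for Ctl-Rz, 30.4 ± 8.94 for Ir-Veh and 20.1 ± 11.5 for Ir-Rz. Its part in the result was not tested. For the effect of RZ with radiation minus that without, edgeR called 0 of 76 genes, also a background of 0%, with 2 genes under an unadjusted p of 0.05 and 1 by DESeq2. These were Crtac1 (2.03 ± 0.79) and Grin1 (-0.84 ± 0.40), both with an adjusted p of 0.988.

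**Figure D5:**
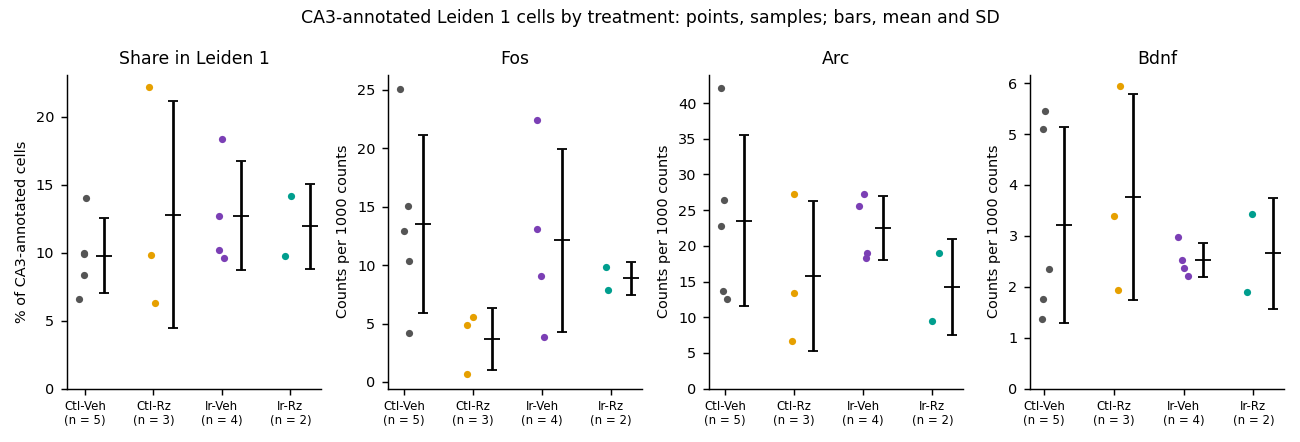
Share of CA3-annotated cells in Leiden 1 (%) and levels of Fos, Arc and Bdnf in those cells (counts per 1000 counts) by treatment group, 1 point per sample with the mean and SD beside it (n = 5, 3, 4 and 2). The groups overlap in the panels of the share, Arc and Bdnf. In the Fos panel the Ctl-Rz points, at 0.660 to 5.53, lie below 4 of the 5 Ctl-Veh points and below the Ir-Rz points.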

How the data were processed

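Sagittal sections cut from fresh-frozen hemibrains had been imaged by MERFISH (MERSCOPE instrument), with cell outlines from Cellpose, per the labels and the deposited tables. The deposited values used are the authors' counts of transcripts per gene and cell, with no normalization, for 255 genes, and the authors' class, Leiden cluster, volume and position of each cell, whose units are not stated in the deposited table. The sources used here do not give software versions, cell filters, doublet treatment or the genes used for clustering. The 14 samples held 413 to 1449 annotated neurons and 137786 to 434127 counts each.

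The members and gene lists were chosen with earlier results of these data known. The distance measure and its limits, the comparison of near and far cells, the rich-cell minimum counts, the comparison along CA1 and the TGACG motif were added after the data had been seen. Named genes were the members of the CA1, CA2, CA3, dentate granule, mossy cell and subiculum lists, the 10 highest and 10 lowest against both references, the 10 most different between the references and, between treatments, 7 set genes and the 5 of smallest p. One gene that this rule names is not reported here. Levels were scaled per 1000 counts with a pseudocount of 0.5. Treatment and near-far comparisons summed counts per sample and used edgeR 4.0.16 quasi-likelihood tests with TMM, filterByExpr and Benjamini-Hochberg adjustment, with DESeq2 1.42.0 as an alternative (R 4.3.3). Other tests were exact sign-flip or permutation tests over samples (Python 3.11.15, scipy 1.17.1), and figures used matplotlib 3.10.9. The fits were tested on simulated data.

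The number in a sample's title equals its assay number in the deposited cell table, and samples of an assay are separate regions there. Over all annotated neurons the samples of an assay deviated together, with correlations of 0.298 to 0.671, so the assay was added as a block in an alternative fit. Over the 188 cells the correlations were -0.175 to 0.539.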

Additional observations from a re-analysis of the deposited data

Results flagged for a closer look

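Of 38 groups of 4 or more samples examined, 5 held a sample standing apart from the others by Dixon's criterion, where chance gives about 1 in 20. In Ctl-Veh 12 the profile of the CA3-annotated Leiden 1 cells stood 55.4% of the way from CA3 to CA1, against 25.02 to 28.4% in the other 4 Ctl-Veh samples. Its Fibcd1 level was 5.49 against 0 to 0.574, and its Adgrl2 level 2.20 against 0 to 0.574. In Ir-Veh 1 the median distance percentile was 17.1, against 33.9 to 36.4 in the other Ir-Veh samples. In Ir-Veh 2 the Cckbr level was 4.35, against 0.921 to 1.21.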

How the results depend on the processing

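Of 385 alternative values of the main results, 360 were counted as unchanged, and the cause was not tested for the others. For a difference, unchanged meant the same direction and side of the threshold. For the profile position it meant a mean within the SD over samples of the main value, and for a number of called genes a number near the main one. The distance, count and volume results kept direction and side of the threshold under every alternative run. With 5 neighbours the CA1 share differed by 3.74 points (adjusted p = 0.0508, exact test), and the DG share by -1.30 from Leiden 8 and 0.39 from CA1-annotated cells, where the values with 10 neighbours were -2.38 and 0.905. The DG difference from Leiden 8 also lost its call at -1.54 with samples of 10 or more cells, at -2.26 without Fibcd1-rich cells, and without single samples, with a range of -2.81 to -1.79, and that from CA1-annotated cells ranged from 0.645 to 0.975. Without a filter, 53 genes were lower near CA1, and Arc, Bdnf, Egr1 and Ctsb were then called at -0.36, -0.46, -0.36 and -0.51.

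The share for Ir-Rz minus Ir-Veh was 0.743 with all Leiden 1 cells as denominator and 0.794 with the replicate block, and ranged from -2.996 to 1.42 without single samples (1.10 without Ir-Veh 12, 1.42 without Ir-Rz 1). Ctl-Rz minus Ctl-Veh ranged from -1.69, without Ctl-Rz 8, to 6.27. The block of assay number changed no call between treatments and reversed uncalled log2 differences: for Ir-Veh minus Ctl-Veh, Arc 0.38, Bdnf 0.31, Cckbr 0.093 and Fibcd1 -2.09; for Ir-Rz minus Ir-Veh, Cckbr 0.48 and Fibcd1 -1.91; for Ctl-Rz minus Ctl-Veh, Bdnf -0.082. Other uncalled reversals were, with samples of 10 or more cells, Arc 0.36 and Bdnf 0.30 (Ir-Veh minus Ctl-Veh) and Arc 0.075, Egr1 0.31 and Cckbr -0.087 (Ctl-Rz minus Ctl-Veh). Without a filter they were Arc 0.10 (Ir-Veh minus Ctl-Veh), Fibcd1 -0.067 (Ir-Rz minus Ir-Veh) and Cckbr -0.12 (Ctl-Rz minus Ctl-Veh). Arc for Ir-Veh minus Ctl-Veh was 0.00081 by DESeq2 and 0.024 with only those groups. Without cells of under 100 counts Bdnf was -0.034 for Ir-Rz minus Ir-Veh and Cckbr -0.0076 for Ctl-Rz minus Ctl-Veh. Near minus far, Bdnf was 0.039 without Leiden 1 cells and Egr1 0.10 within 100 units. Leaving out single samples, the reversals spanned, for Ir-Veh minus Ctl-Veh, Arc -0.21 to 0.21 and Cckbr -0.92 to 0.23; for Ir-Rz minus Ir-Veh, Bdnf -0.63 to 0.36, Egr1 -0.64 to 0.050, Fibcd1 -6.81 to 0.95, Iyd -0.18 to 0.30 and Cckbr -0.79 to 0.38; for Ctl-Rz minus Ctl-Veh, Bdnf -0.18 to 0.64, Egr1 -0.80 to 0.072, Fibcd1 -5.46 to 0.18 and Cckbr -0.25 to 0.40. Kcnh2, near minus far, was 0.17 without Ctl-Rz 8. Where 1 Ir-Rz sample remained, the share had no test. Samples held 5 to 34 cells, and whether more cells or more samples would give calls was not tested.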
